A study of Mus musculus with 13 samples.

Results

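Receptors and cytotoxic effectors of natural killer (NK) cells were followed in EPLMs, early bone marrow progenitors that keep both lymphoid and myeloid potential, of mice that overexpress the B cell coactivator OBF1. The group holds 9 genes, chosen by name with earlier results of these data known, namely Klrd1, Klrk1, Ncr1, Tyrobp, Fcer1g, Gzma, Gzmb, Prf1 and Nkg7. Every probe set that the platform annotation assigns to one of them alone was used, which gave 10 probe sets of 45037, and 9 genes of the 18193 that have such a probe set. Prf1 has 2 of these probe sets and each other gene has 1.

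The arrays compared 3 wild type (WT) mice with 3 BCS mice, all 7 weeks old, on a mixed B6CF1 and C57BL/6 background. BCS mice carry a human OBF1 cDNA with an HA tag, driven by the murine Eμ enhancer and a VH promoter, a pairing made for B lineage cells that can also be active in T cells. WT mice were littermates without the transgene. BCS mice exist as 3 transgenic lines, the line put on the arrays is not given in the sources used here, and each array received the RNA of 1 mouse. EPLMs were sorted from bone marrow as cells positive for B220, c-kit and CD93 and negative for NK1.1, among other markers. Cells stained by the antibody to the NK marker NK1.1 were thus gated out. It was not tested if that antibody stains the NK cells of every mouse on this mixed background. NK1.1 is encoded by Klrb1c, which has no probe set of its own here.

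NK cells recognise targets through a balance of inhibitory and activating receptors on their surface. Activating receptors mostly lack signalling tails and rely on small adaptors with ITAM motifs, such as DAP12 (Tyrobp) and the Fc receptor gamma chain (Fcer1g), which plasmacytoid dendritic cells (pDCs) and myeloid cells use as well. Killing itself is done by granules that hold perforin and granzymes and are released toward the target cell.

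Values are linear GCRMA intensities, and each array has a median of 20, so that values near 20 carry little signal over background. The upper quartile lay between 337.2 and 337.5 on the 6 arrays. Of the gate genes, Kit and Cd93 were above the array median on all 6 arrays and did not pass between genotypes (log2 change -0.01 and 0.29, adjusted p = 0.983 and 0.322 from limma), while Ptprc, the gene of B220, was lower (log2 change -0.40, adjusted p = 0.0101). Pou2af1, the mouse gene of OBF1, had a log2 change of 0.99 (SE, the standard error, 0.23, adjusted p = 0.0436 from limma). It is unknown if that probe set also reads the human transgene, and the labels are therefore not checked by it.

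Promoter sequences are shown for 2 genes whose intensity fell and for 2 that did not pass the test, so that their regulatory sequence can be set beside their values. The lines hold the 250 bases before the RefSeq transcription start of Klrk1 (chr6:129623865-129624114, minus strand), Fcer1g (chr1:171234350-171234599, minus strand), Gzmb (chr14:56262335-56262584, minus strand) and Ncr1 (chr7:4337465-4337714, plus strand) in the build GRCm38.p6, read 5′ to 3′ along the gene. Capitals mark the letters TGTGGT on either strand, the core motif of Runx factors.
Klrk1: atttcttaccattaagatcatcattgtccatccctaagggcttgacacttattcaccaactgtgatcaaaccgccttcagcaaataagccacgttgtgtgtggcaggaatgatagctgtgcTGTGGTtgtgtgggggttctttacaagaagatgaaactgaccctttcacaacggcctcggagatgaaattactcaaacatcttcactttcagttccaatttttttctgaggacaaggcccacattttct
Fcer1g: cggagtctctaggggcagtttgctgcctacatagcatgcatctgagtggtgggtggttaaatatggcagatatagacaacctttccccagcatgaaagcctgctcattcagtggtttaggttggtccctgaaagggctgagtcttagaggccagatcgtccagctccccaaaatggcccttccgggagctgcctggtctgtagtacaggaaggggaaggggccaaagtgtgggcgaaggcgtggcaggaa
Gzmb: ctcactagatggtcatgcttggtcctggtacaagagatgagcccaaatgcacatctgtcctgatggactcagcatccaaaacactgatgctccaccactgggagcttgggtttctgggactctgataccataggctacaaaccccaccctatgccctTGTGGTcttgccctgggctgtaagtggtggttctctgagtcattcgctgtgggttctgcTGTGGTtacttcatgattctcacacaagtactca
Ncr1: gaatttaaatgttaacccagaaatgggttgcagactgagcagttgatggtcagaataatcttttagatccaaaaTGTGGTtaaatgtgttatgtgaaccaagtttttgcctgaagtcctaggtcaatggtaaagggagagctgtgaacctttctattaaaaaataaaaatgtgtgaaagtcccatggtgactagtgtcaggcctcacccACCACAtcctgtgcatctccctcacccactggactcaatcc

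Of the 9 genes, 7 had such a window, and Klrd1 and Tyrobp had none. The Runx letters occurred in 6 of the 7 windows, with 2 matches each in Ncr1 and Gzmb, and not in Fcer1g, beside 14.2% of 27025 mouse promoter windows of the same length. The octamer ATGCAAAT, the site that OBF1 reads together with Oct factors, was in 0 of the 7 windows, beside 1.61% of all windows. The letters TCACAC, part of a T-box site, were in the windows of Ncr1, Gzmb and Nkg7 (12.2% of all windows), and the E-box CANNTG was in all 7 (66% of all windows), each searched on both strands. A match or its absence describes these letters in this window alone.

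In BCS EPLMs, 4 of the 9 genes fell, none rose, and 5 did not pass the test. Those that fell were the lectin receptor genes Klrd1 and Klrk1 and both adaptor genes, Tyrobp and Fcer1g, with log2 changes from -2.42 to -1.20. The granule genes Gzma, Gzmb, Prf1 and Nkg7 and the receptor gene Ncr1 had lower means in BCS mice but overlapped with WT mice, with log2 changes from -1.54 to -0.51. By probe set, 4 of 10 were lower, beside 3.25% of all probe sets. By gene, each read from its brightest probe set, 4 of 9 were lower, beside 4.68% of all genes, and the median log2 change was -1.20 beside 0.01 over all genes. A gene was called at a Benjamini-Hochberg adjusted p under 0.05 from limma. The difference in change between the 4 genes and the other 5 was not tested. In a sorted bulk population, fewer cells of a type and less RNA per cell cannot be told apart.

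**Figure D1:**
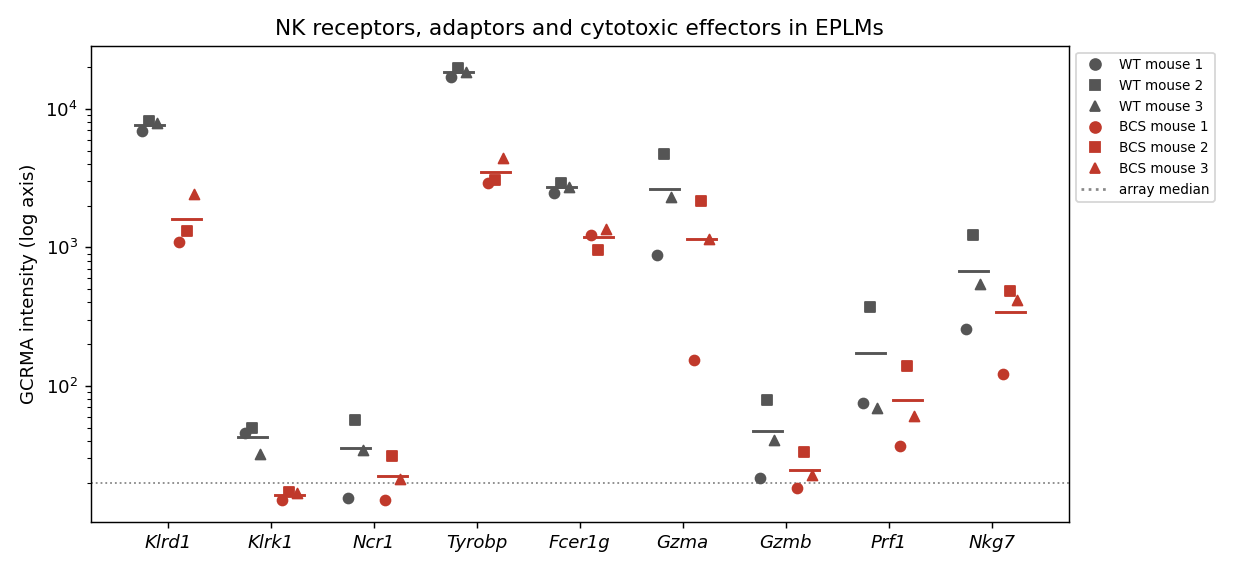
GCRMA intensity (log axis) of the brightest probe set of each of the 9 genes in EPLMs, with 3 WT mice in gray and 3 BCS mice in red; symbols stand for the mouse number, bars for means and the dotted line for the array median. Klrd1, Klrk1, Tyrobp and Fcer1g do not overlap between genotypes, while in the other 5 genes the spread among mice of 1 genotype exceeds the distance between the means.

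**Figure D2:**
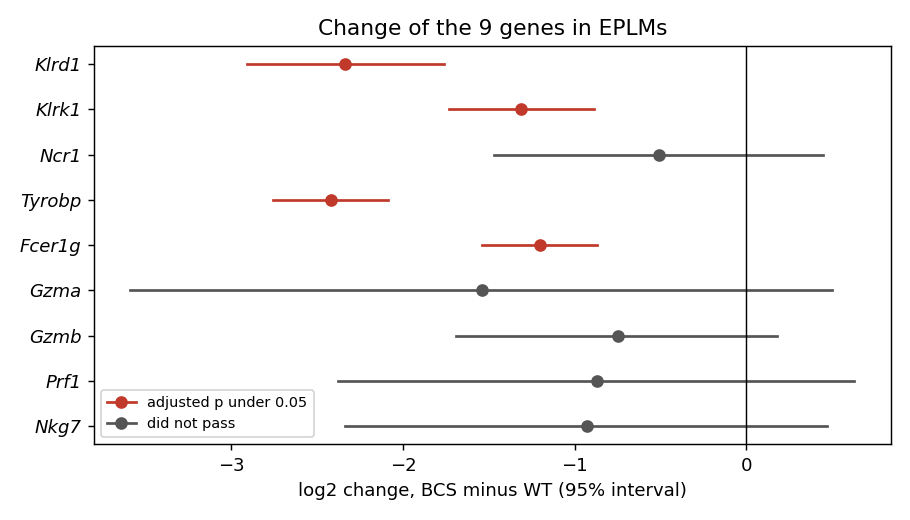
Log2 change of each of the 9 genes, BCS minus WT, with the 95% interval from limma. The intervals of Klrd1, Klrk1, Tyrobp and Fcer1g (red) lie below 0, and those of the other 5 genes (gray) include 0.

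Among the receptors, Klrd1 encodes CD94, the partner chain that joins NKG2 proteins to form receptors for the nonclassical MHC molecule Qa-1. Its intensity was 6901, 8110.1 and 7943 in the 3 WT mice and 1087, 1306 and 2430.2 in the 3 BCS mice. All BCS mice were below all WT mice, and the third BCS mouse stood above the other two. WT averaged 7651 ± 655 (SD, n = 3), which was 4.76 times the BCS mean of 1608 ± 721 (SD, n = 3). The log2 change was -2.34 (SE 0.25, 95% interval -2.91 to -1.76, adjusted p = 0.000982 from limma).

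Klrk1 encodes NKG2D, an activating receptor for stress-induced ligands, and lies next to Klrd1 on chromosome 6 with 0 annotated genes between them. Its intensity was 45.4, 49.9 and 32.1 in WT and 15.0, 17.1 and 16.8 in BCS mice. The genotypes did not overlap, and all BCS values lay under the array median, where background sets much of the value and with it the size of the fall. Klrk1 had a log2 change of -1.31 (SE 0.18, adjusted p = 0.00396 from limma), and of -0.84 with an offset of 16 in place of 1 before log2. The Klrk1 window printed above held 1 Runx match.

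Ncr1 encodes NKp46, an activating receptor that defines NK cells in many species. Values of 15.4, 56.5 and 34.4 were measured in WT and of 15.0, 31.3 and 21.3 in BCS mice. They overlapped, and the first mouse of each genotype was below the array median. The log2 change of -0.51 (SE 0.42, 95% interval -1.47 to 0.45) did not pass (adjusted p = 0.606 from limma).

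Tyrobp encodes DAP12, the adaptor through which many activating receptors of NK cells, myeloid cells and pDCs signal. WT mice had intensities of 16884, 19849 and 18362, and BCS mice had 2913, 3083 and 4439.8. Both groups were tight and far apart. With means of 18365 ± 1483 (SD, n = 3) and 3479 ± 837 (SD, n = 3), WT was 5.28 times BCS. This was the largest fall among the 9 genes, with a log2 change of -2.42 (SE 0.15, 95% interval -2.76 to -2.09, adjusted p = 6.38e-05 from limma).

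Fcer1g encodes the gamma chain shared by Fc receptors and by NKp46. Its WT intensities were 2458, 2917 and 2737, and its BCS intensities were 1226, 961 and 1359. The genotypes were again apart, with every BCS mouse well above the array median. The means of 2704 ± 231 (SD, n = 3) and 1182 ± 203 (SD, n = 3) gave a log2 change of -1.20 (SE 0.15, 95% interval -1.54 to -0.87, adjusted p = 0.00186 from limma). The Fcer1g window above was the one of the 7 without the Runx letters.

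All 3 BCS mice lay below all 3 WT mice in these 4 of the 9 genes, beside 14.2% of all genes. For each of them the exact permutation test, two-sided, gives p = 0.1, the lowest value possible with 3 mice in each group. The 4 calls held without each mouse in turn, with a highest adjusted p of 0.0194 for Klrk1, 0.0116 for Fcer1g, 0.00623 for Klrd1 and 0.00057 for Tyrobp from limma. With the methods' t-test, adjusted over all probe sets, the calls of Klrd1, Klrk1 and Fcer1g were lost (adjusted p = 0.108, 0.105 and 0.0924).

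Of the granule genes, Gzma encodes granzyme A, a tryptase of cytotoxic granules. WT mice had 885, 4689.8 and 2296, and BCS mice had 154, 2148 and 1152. The first mouse was lowest and the second highest in both genotypes, and the spread within a genotype was wider than the distance between the means. The highest WT mouse was 5.3 times the lowest, and the highest BCS mouse 13.9 times the lowest. The log2 change of -1.54 had a SE of 0.90 and an interval from -3.59 to 0.50 (adjusted p = 0.429 from limma). Without the first BCS mouse it was -0.43.

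Gzmb encodes granzyme B, which cleaves caspases in target cells. Its values were 21.7, 79.0 and 40.4 in WT and 18.2, 33.3 and 22.8 in BCS mice, close to the array median in most mice. The same order of mice was seen as for Gzma. Gzmb had a log2 change of -0.75 (SE 0.41, 95% interval -1.69 to 0.18, adjusted p = 0.39 from limma). Its window above held 2 Runx matches, as did that of Ncr1. The windows of Gzma, Prf1 and Nkg7, which did not pass either, held 1 each, as did that of Klrk1, which fell.

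Prf1 encodes perforin, the pore protein through which granzymes reach the target. Its brighter probe set had 75.1, 373 and 69.5 in WT and 36.7, 139.7 and 60.5 in BCS mice. The second mouse stood out in each genotype. The log2 change was -0.87 (SE 0.66, 95% interval -2.38 to 0.63, adjusted p = 0.562 from limma). The other probe set was below the array median on all 6 arrays, from 11.0 to 15.6, and had a log2 change of -0.03.

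Nkg7 encodes a granule membrane protein of NK cells and cytotoxic T cells. Intensities were 259, 1220.1 and 545 in WT and 121, 485 and 418 in BCS mice. Here too the second mouse was highest and the first lowest, and the genotypes overlapped. Nkg7 had a log2 change of -0.93 (SE 0.62, 95% interval -2.34 to 0.47, adjusted p = 0.497 from limma).

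The genes differed in how far WT mice varied. In Klrd1, Tyrobp and Fcer1g the highest WT mouse was at most 1.19 times the lowest, and in Klrk1 1.55 times. In Ncr1, Gzma, Gzmb, Prf1 and Nkg7 it was at least 3.64 times the lowest. BCS mice did not divide the genes in this way. There the highest mouse was 2.24 times the lowest in Klrd1 and 1.52 times in Tyrobp. It was 2.08 times in Ncr1, 1.83 times in Gzmb and at least 3.81 times in Gzma, Prf1 and Nkg7. The order of the first mouse lowest and the second highest in both genotypes was found in 4 of the 9 genes (Ncr1, Gzma, Gzmb and Nkg7), beside 2.54% of all genes. This order was noticed in the values and is given as a description.

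Granulocyte genes followed nearly the same mice. S100a8, an abundant calcium-binding protein gene of neutrophils, had 8567, 34295 and 12138 in WT and 4295, 26694 and 19299 in BCS mice. S100a9, its partner, had 3677, 21503 and 4833 in WT and 1453, 12951 and 8109.8 in BCS mice. Both were highest in the second mouse of each genotype and overlapped between genotypes (adjusted p = 0.912 and 0.849 from limma). Of 19 measured granulocyte and monocyte markers, 6 had the same order of mice and 4 were lower, beside 2.54% and 4.68% of all genes. Their summed intensities ran from 39036 to 122846 in WT and from 14191 to 78897 in BCS mice. Those that fell were Ccr2, Csf1r, F13a1 and Ly86, and the calls of Ccr2 and F13a1 were lost without at least 1 mouse (adjusted p up to 0.0853 and 0.108). The part of such cells in the values of the NK genes was not tested. Without both mice numbered 2, an alternative chosen after seeing the data, Klrd1, Klrk1, Tyrobp and Fcer1g remained lower (adjusted p = 0.0233, 0.044, 0.00233 and 0.0207 from limma).

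**Figure D3:**
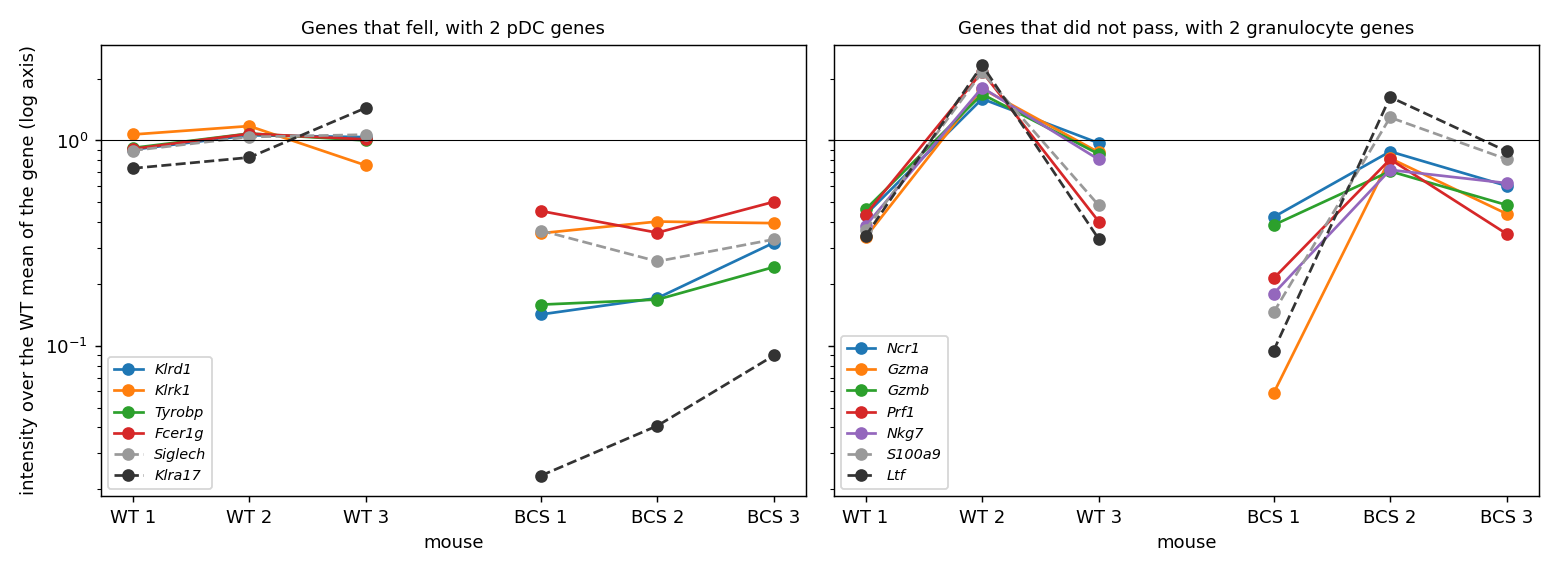
Intensity of each gene divided by its WT mean (log axis) in the 3 WT and 3 BCS mice; lines join the points of 1 gene and give no order in time. On the left, the genes that fell stand beside the pDC genes Siglech and Klra17 (dashed), and on the right, the genes that did not pass stand beside the granulocyte genes S100a9 and Ltf (dashed), with the second mouse highest in both genotypes. These marker genes do not stand for their whole lists. Spib of the pDC list was higher in all BCS mice than in all WT mice. Csf1r, Ccr2, F13a1 and Ly86 of the granulocyte and monocyte list fell.

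Of 11 measured NK cell markers, 7 of which are among the 9 genes, all had lower means in BCS mice. Of these, 2 passed, namely Klrd1 and Klrk1, beside 4.68% of all genes called lower. The others are the receptor genes Klra8 and Klre1 and the transcription factor genes Eomes and Tbx21. The lower mean of Klra8 cannot be read as a change in expression, as described below. Eomes, which directs NK cell maturation, had 40.6, 241 and 98.6 in WT and 15.0, 77.7 and 40.2 in BCS mice, and Tbx21, the T-bet gene, had 16.6, 86.0 and 19.9 and then 10.5, 26.0 and 13.2. Both kept the order of mice seen for Gzma, and neither passed (adjusted p = 0.319 and 0.432 from limma). Summed over the 11 markers, the intensity was 9075 to 15279 in WT and 1512 to 5268 in BCS mice, and much of that sum is Klrd1 itself. Klra8 is in the sum too, with 976 in BCS mouse 3.

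Beyond the 9 genes, 19 further NK receptor genes of 29 listed were measured, with a median log2 change of -0.74. That median includes Klra7 and Klra8, whose values are limited as described below. Of these, 3 fell and none rose, beside 4.68% lower and 3.15% higher over all genes. Klra17, which encodes the pDC receptor Ly49Q and is also counted among the pDC markers, had 971, 1097 and 1914 in WT and 30.9, 54.1 and 119 in BCS mice. Its log2 change of -4.41 (SE 0.45, adjusted p = 0.000695 from limma) was the largest of the list. Klrb1f, a C-type lectin gene of the Nkrp1 family, went from 1182, 1289 and 1023 to 233, 452 and 566, a log2 change of -1.57 (SE 0.29, adjusted p = 0.0163), and Cd96, a receptor for nectin-like ligands, from 384, 494 and 443 to 271, 251 and 264, a change of -0.74 (SE 0.16, adjusted p = 0.0309). The genotypes did not overlap in these 3 genes. The Klrb1f call was lost without WT replicate 1 or 2 (adjusted p = 0.0506 and 0.0607), and the Cd96 call without any mouse but WT replicate 1 (adjusted p from 0.0582 to 0.109).

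Klrc1, which encodes NKG2A, the inhibitory partner of CD94, did not share the tight WT profile of Klrd1. It had 289, 1189 and 386 in WT and 67.1, 414 and 407 in BCS mice, with a log2 change of -1.18 (SE 0.73, adjusted p = 0.459 from limma). The genes of the other partners, Klrc2 and Klrc3, were below the array median on all 6 arrays. Klre1 had 53.3, 348 and 109 in WT and 13.1, 47.6 and 116 in BCS mice (adjusted p = 0.359 from limma), and Klrb1a had 33.2, 278 and 67.1 and then 15.5, 69.4 and 63.6 (adjusted p = 0.548). Klra8, the gene of the viral receptor Ly49H, was at 761 and 981 in WT mice 1 and 3 and at 976 in BCS mouse 3, and at 26.0, 25.8 and 20.3 in the remaining mice. Its level, far above the array median or near it, differed among mice of the same genotype (log2 change -1.73, SE 1.65, adjusted p = 0.662 from limma). A probe set of the related gene Klra7 split the same mice, with 263, 325 and 636 against 11.0, 19.0 and 8.32, and both are probe sets of a type that can read near-identical genes of the Ly49 family. The mice are of mixed background, and which Ly49 genes each mouse carried was not tested, so these values cannot be read as changes in expression.

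**Figure D4:**
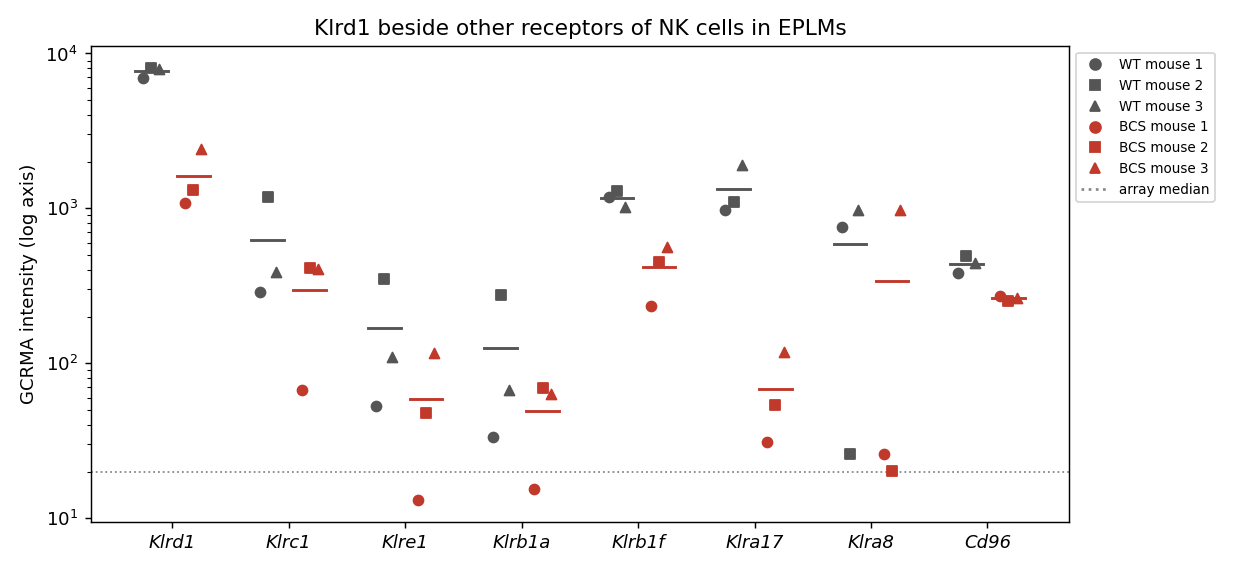
GCRMA intensity (log axis) of Klrd1 and 7 other genes listed as NK receptors in EPLMs, with 3 WT mice in gray, 3 BCS mice in red, bars for means and a dotted line for the array median. Klra17 among them is a pDC receptor gene. Klrd1, Klrb1f, Klra17 and Cd96 do not overlap between genotypes, and Klra8 is high in 2 WT mice and 1 BCS mouse.

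On the side of the ligands, 9 of 17 listed genes were measured, and 1 fell, beside 4.68% of all genes. Cd48, the ligand of the NK receptor 2B4, had 5732, 5447 and 5027 in WT and 3553, 4223 and 3661 in BCS mice, a log2 change of -0.50 (SE 0.10, adjusted p = 0.0166 from limma). All BCS mice were below all WT mice, and the call was lost without WT replicate 1, WT replicate 2 or BCS replicate 3 (adjusted p from 0.0605 to 0.0635).

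Of 20 measured genes in a list of receptors that pair with DAP12 or the gamma chain, 1 fell, a share near the 4.68% of all genes, and none rose. The list is loose, since Clec7a and Ms4a2 have signalling motifs of their own. The median log2 change was -0.16, and 8 were below the array median on all 6 arrays. Siglech, a pDC receptor that pairs with DAP12, had 2363, 2754 and 2825 in WT and 964, 682 and 873 in BCS mice, without overlap (log2 change -1.67, SE 0.15, adjusted p = 0.000424 from limma). The NKG2D adaptor gene Hcst, which encodes DAP10, lay near the array median, from 15.2 to 24.2, with a log2 change of -0.06 (adjusted p = 0.909 from limma).

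Downstream of the adaptors, 2 of 16 measured ITAM signalling genes fell and 3 rose, beside 4.68% lower and 3.15% higher over all genes. Fyn, a Src family kinase gene, had 5934, 8273 and 7925 in WT and 3220.0, 2913 and 3657 in BCS mice, a log2 change of -1.17 (SE 0.14, adjusted p = 0.00156 from limma). Lat2, an adaptor gene of B cells and myeloid cells, had a log2 change of -1.57 (SE 0.23), with 1 of its 3 probe sets called lower. In contrast, Lat, the adaptor of T cell receptor signalling, went from 79.5, 163 and 102 to 587, 403 and 340.3, a change of 1.97 (SE 0.30, adjusted p = 0.00563). Cd247, which encodes the CD3 zeta chain, another ITAM partner of NK receptors, went from 100, 189 and 179 to 557, 370.2 and 319. Its log2 change of 1.42 (SE 0.29, adjusted p = 0.0253 from limma) ran opposite to that of Tyrobp and Fcer1g. The Cd247 call rested on 1 of 4 probe sets, the other 3 of which were below the array median on all 6 arrays, and it was lost without WT replicate 1 or 3 or BCS replicate 1 or 2 (adjusted p from 0.0517 to 0.0718). Plcg2, a phospholipase gene, rose by 0.63 (SE 0.07), while the kinase gene Syk had a log2 change of -0.22 and did not pass (adjusted p = 0.362 from limma).

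Among 29 further granule and cytotoxic genes, 6 fell and none rose, beside 4.68% lower and 3.15% higher over all genes. The median log2 change was -0.27. The chemokine gene Ccl3 went from 273, 216 and 257 in WT to 15.8, 20.6 and 22.8 in BCS mice, which is at the array median and makes the size depend on background. Its log2 change was -3.60 (SE 0.20, adjusted p = 4.83e-05 from limma). Ctsl, a lysosomal protease gene, had a log2 change of -1.71 (SE 0.15, adjusted p = 0.000344), and Lamp2, a lysosomal membrane protein gene, one of -0.82 (SE 0.06, adjusted p = 0.000173) with all 4 of its probe sets lower. For Ctsl, 1 of 2 probe sets was called lower. Ccl4 went from 28.1, 38.0 and 43.6 to 16.6, 18.8 and 22.3, around the array median, where background sets much of the size of its log2 change of -0.88 (SE 0.19, adjusted p = 0.0324). Its call was lost without any mouse but WT replicate 1 (adjusted p from 0.0525 to 0.114). The other 2 were Lamp1 and Stxbp2, with calls that were each lost without at least 1 mouse (adjusted p up to 0.0551 and 0.127). For Stxbp2, 1 of 3 probe sets was called lower. Ccl3 and Ccl4 are also made by many myeloid cells and pDCs, and the lysosomal genes are expressed widely.

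The chemokine gene Ccl5 did not pass, with 337, 3282 and 1009 in WT and 28.4, 942 and 787 in BCS mice (adjusted p = 0.502 from limma). Nor did Ctsw, a protease gene of NK cells and cytotoxic T cells, which had 233, 982 and 424 in WT and 108, 278 and 208 in BCS mice (adjusted p = 0.203). Both had the order of mice seen for Gzma, and 6 of the 29 genes did, beside 2.54% of all genes. The genes of granzymes C, D, E, F, G, M and N were below the array median on all 6 arrays.

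Of 20 measured factors and cytokine receptors of NK cells, 2 rose and 2 fell, beside 3.15% higher and 4.68% lower over all genes. Id2, an inhibitor of E proteins that NK cells need, rose from 3182, 5521 and 3592 in WT to 8510.4, 11241 and 13873 in BCS mice (log2 change 1.46, SE 0.22, adjusted p = 0.00563 from limma), opposite to the receptors and adaptors. Ets1, a factor of lymphoid cells, had a log2 change of 0.64 (SE 0.09, adjusted p = 0.00465). Il18rap, an interleukin 18 receptor gene, was called lower by 1 of its 2 probe sets. That probe set had 2106, 2690.1 and 2553 in WT and 1173, 1094 and 1071 in BCS mice, a change of -1.13 (SE 0.13, adjusted p = 0.00111). Ikzf2, the Helios gene, had one of -0.85 (SE 0.20, adjusted p = 0.0392), which was lost without any mouse but WT replicate 1 (adjusted p from 0.0686 to 0.131).

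Marker genes of other cell types that the gate could hold moved as follows. Of 15 measured pDC markers, 11 fell, beside 4.68% of all genes, none rose, and the median log2 change was -1.06. Klra17 and Siglech, among the 11, are also counted in the receptor lists above. The 4 that did not pass were Spib, Ly6d, Tlr7 and Tlr9. In Spib all BCS mice lay above all WT mice (log2 change 0.25). The summed intensity of the pDC markers was 95966 to 107005 in WT and 49021 to 65801 in BCS mice, without overlap. Much of that sum is Irf8, with 38751 to 39993 in WT and 23426 to 29268 in BCS mice. Besides Klra17, the largest changes were in the membrane trafficking gene Pacsin1 (-3.37, SE 0.25), the chemokine receptor gene Ccr9 (-3.29, SE 0.25) and Bst2 (-2.32, SE 0.23), all on the log2 scale from limma. The calls of Irf7 and Lag3, among the 11, were lost without at least 1 mouse (adjusted p up to 0.119 and 0.0864). With the methods' t-test, adjusted over all probe sets, all 11 calls were lost (adjusted p from 0.0549 for Pacsin1 to 0.233 for Irf7). The part of pDCs in the lower Klrd1, Klrk1, Tyrobp and Fcer1g intensities was not tested.

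Of 11 mast cell and basophil markers, which include users of Fcer1g, none passed in limma, with 1 higher at an unadjusted p under 0.05, and the sums ran from 183 to 509 in WT and from 260.5 to 655 in BCS mice. The genes Fcer1a, Cma1, Mcpt4, Tpsab1, Tpsb2 and Il4 were below the array median on all 6 arrays, and Gata2 and Hdc were above it on all 6. Cpa3, a mast cell protease gene, had 12.2, 30.3 and 19.7 in WT and 26.3, 94.8 and 199 in BCS mice (log2 change 1.98, SE 0.63, adjusted p = 0.124), and the basophil protease gene Mcpt8 had 13.4, 41.7 and 46.3 and then 27.5, 119 and 59.7 (adjusted p = 0.439). Both overlapped between genotypes, and the part of such cells in the Fcer1g values was not tested. Of 11 T cell markers, 1 fell, beside 4.68% of all genes, namely Cd8a, with a log2 change of -2.71 (SE 0.47, adjusted p = 0.011 from limma). The sums were 1705 to 2434 in WT and 1548 to 2214 in BCS mice. Much of them is Cd28, with 1356 to 1772 in WT and 1201 to 1918 in BCS mice. Of 14 B lineage markers, 7 rose and none fell, beside 3.15% higher and 4.68% lower over all genes. Their median log2 change was 0.62, with sums from 87637 to 113169 in WT and from 138014 to 156434 in BCS mice. The risers included Vpreb3 (2.27, SE 0.42), the surrogate light chain gene Igll1 (1.47, SE 0.28), Cd79b (1.23, SE 0.17) and Pax5 (1.12, SE 0.24). For Igll1 and for Pax5, 1 of 2 probe sets was called higher. Of the 7 calls, those of Vpreb3, Igll1, Pax5, Vpreb1 and Ebf1 were each lost without at least 1 mouse (adjusted p up to 0.0623, 0.0616, 0.111, 0.103 and 0.055). The part of B lineage cells in the NK gene values was not tested.

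**Figure D5:**
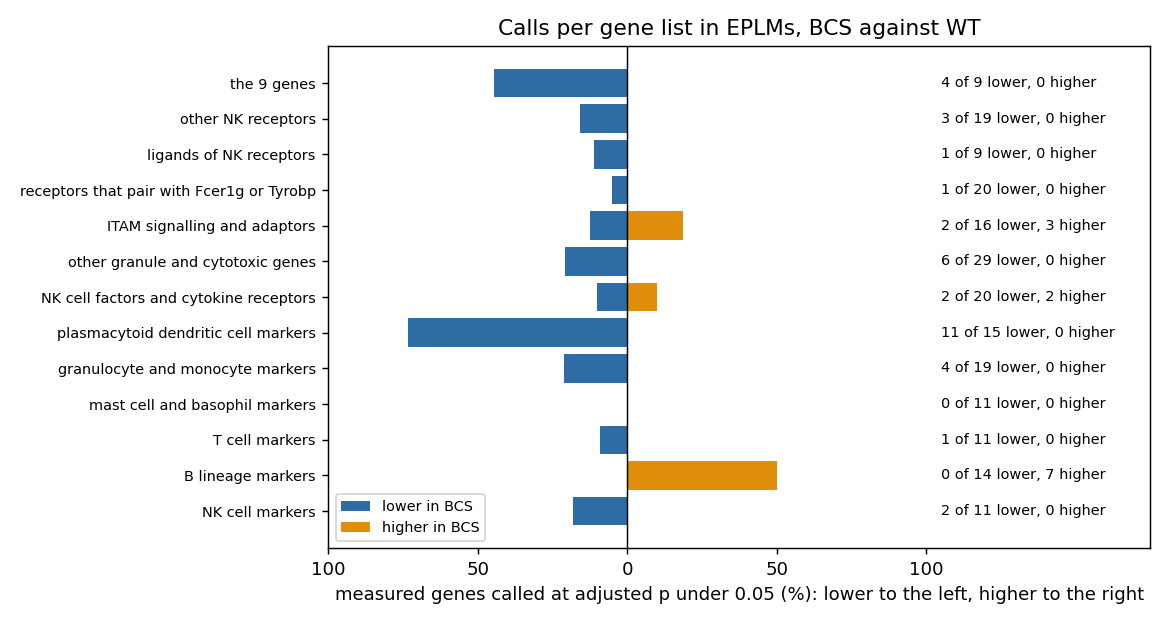
Share of measured genes called at an adjusted p under 0.05 from limma in each gene list, lower in BCS EPLMs to the left and higher to the right, with the counts at the right edge. The 9 genes have 4 lower, pDC markers have 11 of 15 lower, and B lineage markers have 7 of 14 higher. Over all genes, 4.68% were lower and 3.15% higher.

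The genes whose brightest probe sets followed Tyrobp most closely over the 6 arrays were Dipk1a (Pearson r = 0.9982), Rexo2 (r = 0.9975) and Ifi30 (r = 0.9971), with log2 changes between genotypes of -0.92, -1.01 and -1.53. These correlations describe 6 arrays that fall into the 2 genotypes, and none of the genes of the NK lists was among the 3.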

How the data were processed

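RNA from sorted EPLMs of 3 WT and 3 BCS mice was put on Affymetrix mouse GeneChips, with an array for each mouse. The labels state a 1-cycle labeling protocol, whereas the methods state 2 cycles. The deposited values are GCRMA intensities that the authors normalized, on a linear scale (version not given in the sources used here), for 45037 probe sets and 64 control features, of which the latter were left out. Platform annotation gives 34945 probe sets 1 symbol and 932 several. Across probe sets, the mean levels of the EPLM arrays and the 7 large preB arrays correlated with r = 0.0944, against 0.9782 across control features. The large preB values do not follow the names and were not used.

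Intensities, with 1 added, were taken to log2 and BCS was compared with WT using limma 3.58.1 (lmFit and trended eBayes, no covariates) under R 4.3.3, with Benjamini-Hochberg adjustment over all probe sets. A gene was read from its brightest probe set with 1 symbol. The fit was tested on simulated data. Precision is limited by how few arrays there are. Some further items are not named here.

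The genes and lists were chosen with earlier results of these data known. Named were the 9 genes, up to 4 called genes per list with the largest change, defining genes of cell types and the 3 genes most correlated with Tyrobp. Further genes (Klrc1, Klre1, Klrb1a, Klra7, Cpa3, Mcpt8, Ccl5, Ctsw, Hcst, Syk, Plcg2) were named after their values were seen. Alternatives were the methods' t-test, an untrended or a robust eBayes, leaving out dim probe sets (under 50 on more than 3 arrays), quantile normalization, centring, an offset of 16, array weights, 2-fold medians, a stricter adjusted p of 0.01, blocking on the replicate number, the mean of a gene's probe sets, and leaving out each array. Windows of 250 bases came from RefSeq (GRCm38.p6).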

Additional observations from a re-analysis of the deposited data

How the results depend on the processing

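Of all probe sets, 2472 were called in the fit reported. The count was 1178 with 2-fold medians, 1057 at an adjusted p under 0.01, 267 with the methods' t-test and 1008 without both mice numbered 2, a setting chosen after seeing the data. Leaving out each mouse in turn gave 1401 to 2241, with 1430 without WT replicate 3, 1401 without BCS replicate 2 and 1591 without BCS replicate 3. Lower probe sets of the 9 genes numbered 4, and 1 with the t-test after adjustment (Tyrobp, at the threshold with an adjusted p of 0.05 after rounding). At the methods' own thresholds (p under 0.01 and 2-fold medians) the t-test gave 875 probe sets, 4 of them of the 9 genes. After adjustment over all probe sets, that t-test also lost most calls in the other gene lists. Among these were Klra17, Klrb1f, Fyn, Lat, Id2 and Cd79b. With dim probe sets left out, 1 of 7 NK cell markers was lower, where 2 of 11 had been, since Klrk1 was among those left out. With the replicate number as a block, 1920 probe sets were called and 5 of the 9 genes, Gzma with them (adjusted p = 0.0333 from limma). Same-numbered mice deviated together with r = 0.006, 0.096 and 0.104 over 14957 probe sets and 2 of the 3 numbers matched best with their own. With 1 correlation near 0 and no label saying what a number marks, the mice were not treated as pairs. No direction reversed among the 9 genes in any alternative run. For the genes that did not pass, leaving out 1 mouse moved the log2 change between -2.33 and -0.43 for Gzma, -1.20 and -0.29 for Gzmb, -1.39 and -0.09 for Prf1, -1.48 and -0.30 for Nkg7 and -1.0 and -0.09 for Ncr1. The causes were not tested. Klrk1, Ncr1 and Gzmb are limited by intensities close to the array median.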
